A study of Mus musculus with 4 samples.

Results

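The genes described here encode the constitutive proteasome, its caps and activators, and the chaperones that assemble it. They were chosen by symbol, as Psma, Psmb, Psmc, Psmd, Psme, Psmf or Psmg followed by digits, without the immunoproteasome genes Psmb8, Psmb9 and Psmb10. The array held 42 such genes with 63 probes, of 16593 genes and 25697 probes in all. Of these genes, 40 encode proteasome proteins or their assembly factors, while Psmc3ip and Psme3ip1 matched by symbol and encode proteins named for binding a proteasome protein. The proteasome is the protease that degrades proteins tagged with ubiquitin in the cytosol and nucleus. Its 20S core is a barrel in which rings of alpha subunits gate the entry and rings of beta subunits hold the proteolytic sites, and its 19S cap binds ubiquitin chains, removes them, and unfolds and threads the substrate with a ring of ATPases. In lymphocytes it is known for degrading inhibitors of NF-kappaB, for turning over cell cycle proteins, and for producing peptides that are shown on MHC class I.

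The cells came from male Foxp3-GFP transgenic mice (B6.Cg-Foxp3tm2Tch/J), in which GFP reports Foxp3, the transcription factor of regulatory T cells, and all 4 groups carried this allele. Naive CD4 cells were sorted ex vivo as CD4+CD8-GFP-CD44low and natural Treg as CD4+CD8-GFP+, both from lymph node and spleen. Induced regulatory T cells (iTreg) were naive cells stimulated for 5 to 6 days with anti-CD3 and anti-CD28 (1 µg/ml each) plus IL-2 (15 ng/ml) and TGF-beta (10 ng/ml), and then sorted again as GFP+CD25+. Vitamin C iTreg also received vitamin C at 10 µg/ml, and conventional iTreg did not. Each group had 1 array and no replicate, so each difference compares a pair of arrays and carries no test, and how many mice gave the RNA is not stated in the labels. Values are background-corrected, quantile-normalized log2 signals, and a gene was compared where its detection p-value was under 0.01 on at least 1 of the 2 arrays.

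The labels could be checked against marker genes. All 5 CD4 T cell markers with a probe (Cd3d, Cd3e, Cd3g, Cd4 and Cd5) were detected on each array. Of 6 Treg markers, Foxp3 and Il2ra were detected on the 3 regulatory T cell arrays and not on the naive array. Ctla4, Ikzf4 and Tnfrsf18 were detected on all 4 arrays and were lowest in naive cells, and Ikzf2 was detected in natural Treg only. The naive markers Ccr7, Lef1 and Il7r were detected on all 4 arrays. Lef1 and Il7r were highest in naive cells, but Ccr7 was highest in conventional iTreg. Of 6 B cell markers, none was detected on either iTreg array, and Cd79b alone was detected on both ex vivo arrays. Of 6 myeloid markers, Cst3 was detected on all 4 arrays and Fcer1g on both iTreg arrays, with Lyz2, Itgam, Cd14 and Adgre1 on none. Of 6 markers of CD8 T and NK cells, Cd8b1 was detected on all 4 arrays, Klrd1 on 3 (not in natural Treg) and Nkg7 on 3 (not in naive cells), with Cd8a, Ncr1 and Klrb1c on none. The number of genes detected ran from 7027 on the naive array to 7603 on the conventional iTreg array. In RNA from bulk cells, fewer cells that express a gene and less of its RNA per cell cannot be told apart.

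Promoter sequences of 36 of the 42 genes were found in the RefSeq table of build GRCm38.p6, each covering 250 bases before to 50 bases after the annotated start. They are shown for the genes with a promoter in that table whose signal was at least 1.5-fold higher in conventional iTreg than in naive CD4 cells, and for Psmb6, which encodes another of the catalytic subunits. They are printed 5′ to 3′ along the gene's strand, and capitals mark TGACNNNGC (the core of the antioxidant response element, which NRF1 and NRF2 bind with small Maf proteins), CCGGAAG (an ETS-type site) and CCAAT, on either strand. The Psmb5 window lies on the minus strand at chr14:54617946-54618245, Psmb6 on the plus strand at chr11:70525107-70525406, Psmd8 on the minus strand at chr7:29180624-29180923, Psmd11 on the plus strand at chr11:80428365-80428664, Psme3 on the plus strand at chr11:101315963-101316262, Psmg3 on the minus strand at chr5:139826845-139827144 and Psmc3ip on the minus strand at chr11:101095386-101095685.
Psmb5: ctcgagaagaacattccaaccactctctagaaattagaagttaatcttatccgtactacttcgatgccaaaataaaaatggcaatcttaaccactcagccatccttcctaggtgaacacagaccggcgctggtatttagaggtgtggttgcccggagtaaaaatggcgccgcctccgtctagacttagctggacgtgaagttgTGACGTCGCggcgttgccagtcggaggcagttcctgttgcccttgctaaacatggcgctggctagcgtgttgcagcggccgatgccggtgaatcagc
Psmb6: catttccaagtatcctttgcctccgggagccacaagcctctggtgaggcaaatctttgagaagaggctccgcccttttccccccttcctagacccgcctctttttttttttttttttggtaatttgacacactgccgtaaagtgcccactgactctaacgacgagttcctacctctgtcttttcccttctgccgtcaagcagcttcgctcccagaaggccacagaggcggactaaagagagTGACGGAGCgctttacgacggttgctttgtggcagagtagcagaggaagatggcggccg
Psmd8: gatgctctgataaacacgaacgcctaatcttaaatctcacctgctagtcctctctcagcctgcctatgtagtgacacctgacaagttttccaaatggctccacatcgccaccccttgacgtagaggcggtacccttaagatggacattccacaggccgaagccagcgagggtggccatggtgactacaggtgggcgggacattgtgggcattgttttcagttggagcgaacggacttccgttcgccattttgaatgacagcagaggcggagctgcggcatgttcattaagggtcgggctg
Psmd11: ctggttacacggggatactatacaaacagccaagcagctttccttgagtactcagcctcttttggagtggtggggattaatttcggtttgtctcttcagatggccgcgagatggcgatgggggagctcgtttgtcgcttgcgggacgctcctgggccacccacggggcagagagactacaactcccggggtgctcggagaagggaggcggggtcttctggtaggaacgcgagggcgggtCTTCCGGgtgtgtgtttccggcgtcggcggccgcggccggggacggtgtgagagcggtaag
Psme3: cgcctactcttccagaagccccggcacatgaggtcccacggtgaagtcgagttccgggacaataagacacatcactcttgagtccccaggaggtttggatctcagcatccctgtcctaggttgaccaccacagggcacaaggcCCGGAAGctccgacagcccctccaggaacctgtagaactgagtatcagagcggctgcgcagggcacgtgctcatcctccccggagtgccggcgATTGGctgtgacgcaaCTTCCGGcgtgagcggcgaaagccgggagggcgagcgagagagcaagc
Psmg3: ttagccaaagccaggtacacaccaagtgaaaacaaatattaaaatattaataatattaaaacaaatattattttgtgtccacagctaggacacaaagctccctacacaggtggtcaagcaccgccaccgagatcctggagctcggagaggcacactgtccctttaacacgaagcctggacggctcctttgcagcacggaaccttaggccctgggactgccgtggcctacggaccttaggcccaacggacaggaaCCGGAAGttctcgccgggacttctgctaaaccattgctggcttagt
Psmc3ip: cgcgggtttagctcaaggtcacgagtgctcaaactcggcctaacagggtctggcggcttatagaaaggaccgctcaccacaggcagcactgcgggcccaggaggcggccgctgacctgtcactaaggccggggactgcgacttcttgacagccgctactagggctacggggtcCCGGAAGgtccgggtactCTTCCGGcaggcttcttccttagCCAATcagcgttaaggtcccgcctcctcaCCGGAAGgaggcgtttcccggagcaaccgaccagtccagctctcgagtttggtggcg

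In the promoters of both catalytic subunits shown, a TGACNNNGC match lay close to the start, 47 bases before it in Psmb5 and 9 bases before it in Psmb6. Psmd8, the subunit gene with the largest difference of conventional iTreg from naive cells, held none of the 3 marked motifs in its window. The CCGGAAG match of Psmd11 began 11 bases before the start, and Psmc3ip held 3 such matches. The 36 genes had 40 promoter windows in all, and a gene was counted if any of its windows held the motif. TGACNNNGC was found in 6 genes (16.7%), against 14.0% of 27025 genes in the table and 16.6% of those detected on at least 1 array. CCGGAAG was found in 16 of 36 (44.4%), against 9.93% of the table and 21.7% of the detected genes. CCAAT was found in 14 (38.9%), against 41.1% and 43.8%, and the E-box CACGTG, which is not marked above, in 4 (11.1%), against 8.09% and 12.1%. Motifs were searched on both strands. A match is a string of letters and not a measured site, and no match says only that these letters are not in this window.

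Signal was detected on all 4 arrays for 39 of the 42 genes. Psma1 and Psma6, of the alpha ring, and Psmc6, an ATPase of the 19S base, were detected on no array, each through a single probe, and nothing is said of their RNA. Psmd3, Psmf1, Psmg4, Psma8 and Psmb11 had no named probe and were not analysed here. RefSeq lists pseudogenes of Psma5, Psmb5, Psmb6 and Psmb7, and which copies their probes read is uncertain.

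Conventional iTreg were compared with the naive CD4 cells from which they were cultured. The proteasome genes were mostly higher in iTreg, by modest amounts: 33 of 39 lay above 0 and 6 below, with a median log2 difference of 0.26. Over all 7963 genes compared, 43.2% lay above 0 and 53.5% below, and the median was -0.08. At least 1.5-fold higher were 9 of the 39 (23.1%), against a background of 21.2%, and at least 2-fold higher were 2 of 39 (5.13%), against 13.2%. None was 1.5-fold lower, while 28.9% of all genes were. The share above 0 was thus larger than over all genes, while the shares at 1.5-fold and 2-fold higher were near or under the background.

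**Figure D1:**
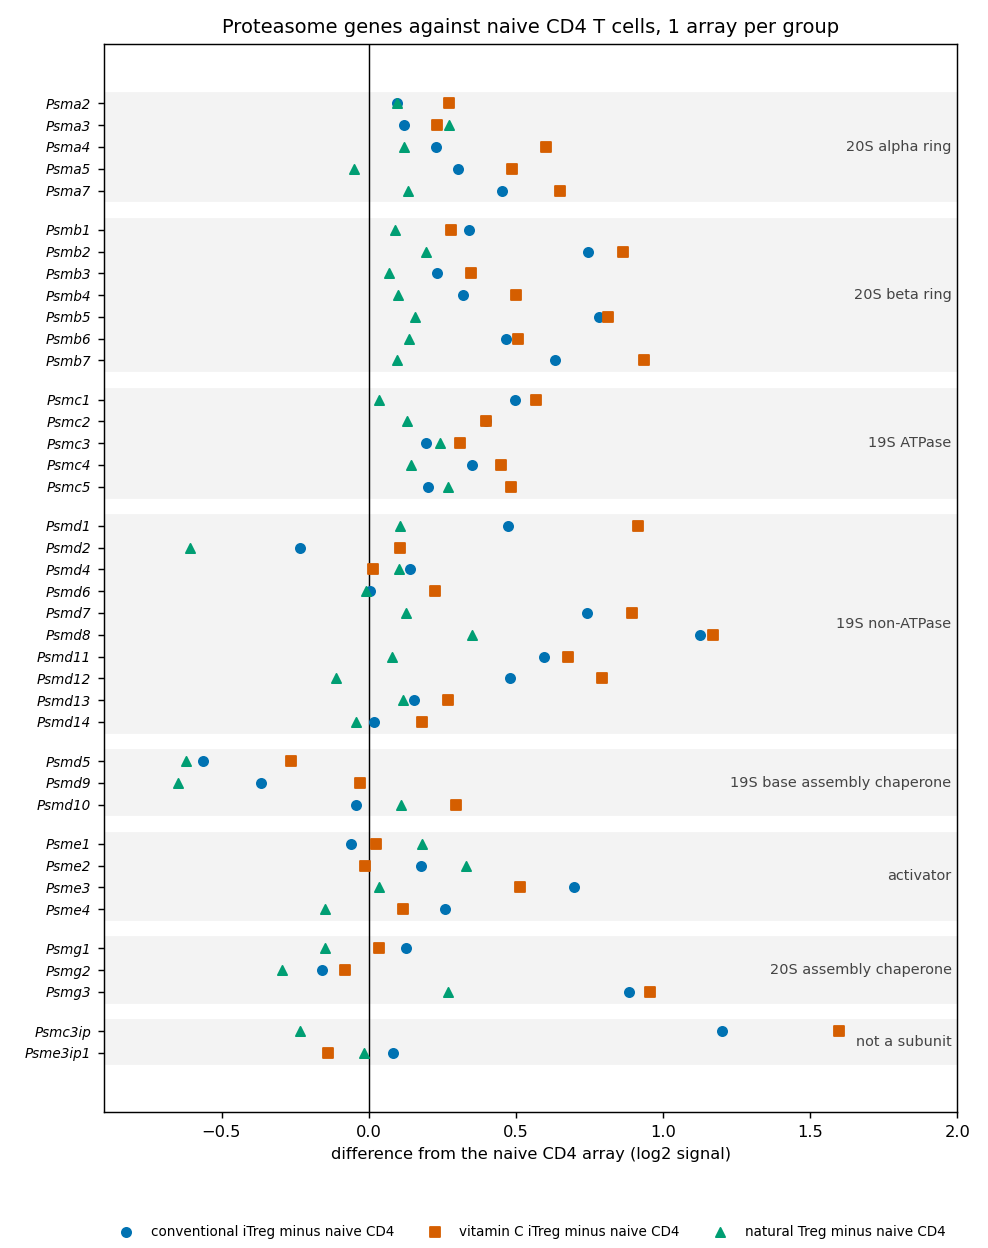
Log2 difference of each of the 39 compared genes from the naive CD4 array (horizontal axis), grouped by role, with circles for conventional iTreg, squares for vitamin C iTreg and triangles for natural Treg; each point is a difference between 2 single arrays. Conventional iTreg points lie to the right of 0 for 33 of 39 genes, natural Treg points for 27 of 39, and the circle of Psmc2 is hidden behind its square.

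The alpha ring, whose subunits form the gate of the core, was represented by 5 of its 7 genes, and all 5 lay above 0 (median 0.23). Psma7, an alpha ring subunit, read 12.56 in naive CD4 cells, 12.69 in natural Treg, 13.01 in conventional iTreg and 13.21 in vitamin C iTreg. Psma5, its neighbour in the ring, read 13.72 in naive CD4 cells, 13.67 in natural Treg, 14.02 in conventional iTreg and 14.21 in vitamin C iTreg. Psma4, whose tail is central to the closed gate in yeast, read 13.09 in naive CD4 cells, 13.21 in natural Treg, 13.32 in conventional iTreg and 13.69 in vitamin C iTreg. In these genes both iTreg arrays lay above both ex vivo arrays and the vitamin C array was the highest. Psma3 read 14.02 in naive CD4 cells, 14.29 in natural Treg, 14.14 in conventional iTreg and 14.25 in vitamin C iTreg. Natural Treg were the highest there, and the iTreg values lay between the ex vivo ones. For Psma2 the values were 14.34 in naive CD4 cells, 14.44 in natural Treg, 14.44 in conventional iTreg and 14.62 in vitamin C iTreg, a range of under 1.5-fold.

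The beta ring was uniform. Each of its 7 genes was lowest in naive cells, next in natural Treg and higher in both iTreg cultures, with a median difference of 0.47 between conventional iTreg and naive cells; with arrays scaled to a common median in place of quantile normalization, the step from naive to natural Treg turned negative in Psmb3. Psmb5, the chymotrypsin-like subunit and the target of bortezomib, read 10.41 in naive CD4 cells, 10.57 in natural Treg, 11.19 in conventional iTreg and 11.22 in vitamin C iTreg. Psmb7, the trypsin-like subunit, read 11.41 in naive CD4 cells, 11.51 in natural Treg, 12.04 in conventional iTreg and 12.35 in vitamin C iTreg. Psmb6, the caspase-like subunit, read 12.02 in naive CD4 cells, 12.15 in natural Treg, 12.48 in conventional iTreg and 12.52 in vitamin C iTreg. All 3 catalytic subunits thus had their ex vivo values below their cultured ones, with differences between conventional iTreg and naive cells of 0.78 for Psmb5, 0.63 for Psmb7 and 0.47 for Psmb6. Psmb2, a structural subunit without a proteolytic site, read 13.36 in naive CD4 cells, 13.56 in natural Treg, 14.11 in conventional iTreg and 14.23 in vitamin C iTreg. Psmb4, also structural, read 13.97 in naive CD4 cells, 14.07 in natural Treg, 14.29 in conventional iTreg and 14.47 in vitamin C iTreg. Psmb2 differed from naive cells as much as the catalytic subunits, by 0.74, and Psmb4 by 0.32. The structural subunits Psmb1 and Psmb3 differed by 0.34 and 0.23.

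The ATPases of the 19S base, which unfold substrates and open the gate of the core, lay above 0 in 5 of 5 compared (median 0.35), and none reached 1.5-fold. Psmc1, whose tail docks into the alpha ring, read 11.03 in naive CD4 cells, 11.06 in natural Treg, 11.53 in conventional iTreg and 11.60 in vitamin C iTreg. Psmc2 read 13.66 in naive CD4 cells, 13.79 in natural Treg, 14.05 in conventional iTreg and 14.05 in vitamin C iTreg, equal in both cultures. Psmc5 read 11.70 in naive CD4 cells, 11.97 in natural Treg, 11.91 in conventional iTreg and 12.19 in vitamin C iTreg. Psmc1 and Psmc2 separated the cultures from the ex vivo cells, while the natural Treg value of Psmc5 lay above that of conventional iTreg. A second Psmc5 probe put natural Treg below conventional iTreg by 0.31, so the place of natural Treg depended on the probe. Psmc3 gave 11.87 in naive CD4 cells, 12.11 in natural Treg, 12.06 in conventional iTreg and 12.18 in vitamin C iTreg, with natural Treg again above conventional iTreg unless arrays were scaled by their median, and Psmc4 differed from naive cells by 0.35.

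The non-ATPase subunits of the 19S cap held the widest range, with 9 of 10 above 0 (median 0.31). Psmd8, a lid subunit that joins late in lid assembly, read 11.81 in naive CD4 cells, 12.16 in natural Treg, 12.93 in conventional iTreg and 12.98 in vitamin C iTreg. It was 2.18-fold higher in conventional iTreg than in naive cells and 2.25-fold higher in vitamin C iTreg, and it was the only proteasome subunit at 2-fold in any comparison by its brightest probe under quantile normalization. Further probes of Psmd7 (log2 differences of 1.13 in vitamin C iTreg over naive cells and 1.04 over natural Treg), Psmb7 (1.00 in vitamin C iTreg over naive cells) and Psmd2 (1.20 in vitamin C iTreg over natural Treg, detected on 2 arrays) also passed 2-fold. Psmd7, the inactive partner of the deubiquitinase Psmd14 in the lid, read 11.86 in naive CD4 cells, 11.98 in natural Treg, 12.60 in conventional iTreg and 12.75 in vitamin C iTreg. Psmd11, a lid subunit that clamps the cap to the core, read 9.42 in naive CD4 cells, 9.50 in natural Treg, 10.01 in conventional iTreg and 10.10 in vitamin C iTreg. Psmd1, a scaffold of the base, read 8.72 in naive CD4 cells, 8.83 in natural Treg, 9.19 in conventional iTreg and 9.64 in vitamin C iTreg. By these probes both cultures lay above both ex vivo samples, but a dimmer Psmd11 probe gave 0.01 in conventional iTreg and -0.10 in vitamin C iTreg over naive cells. Psmd12, another lid subunit, read 11.74 in naive CD4 cells, 11.63 in natural Treg, 12.22 in conventional iTreg and 12.53 in vitamin C iTreg, the same arrangement, although a second, dimmer probe gave no such difference between conventional iTreg and naive cells (-0.05).

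Psmd14, the deubiquitinase that removes ubiquitin chains from substrates, differed from naive cells by 0.02 in conventional iTreg, and the lid subunit Psmd13 by 0.15. Psmd4, a ubiquitin receptor, read 13.90 in naive CD4 cells, 14.00 in natural Treg, 14.04 in conventional iTreg and 13.91 in vitamin C iTreg. Psmd2, the base scaffold that docks ubiquitin shuttles, read 7.45 in naive CD4 cells, 6.84 in natural Treg, 7.21 in conventional iTreg and 7.55 in vitamin C iTreg. It was the only cap subunit below 0, its signal was dim on all arrays, and with median scaling the difference turned positive. The lid subunit Psmd6 read 7.93 in naive CD4 cells, 7.91 in natural Treg, 7.93 in conventional iTreg and 8.15 in vitamin C iTreg, nearly level, while its dimmer second probe was lower in conventional iTreg than in naive cells by a log2 difference of -0.66.

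The chaperones that assemble the ATPase ring stood apart from the subunits they assemble: 0 of 3 lay above 0, with a median of -0.37. Psmd5 read 8.85 in naive CD4 cells, 8.23 in natural Treg, 8.29 in conventional iTreg and 8.59 in vitamin C iTreg. Psmd9 read 7.31 in naive CD4 cells, 6.66 in natural Treg, 6.95 in conventional iTreg and 7.28 in vitamin C iTreg. Psmd10, also called gankyrin, read 11.77 in naive CD4 cells, 11.88 in natural Treg, 11.73 in conventional iTreg and 12.07 in vitamin C iTreg. Naive cells were the highest in Psmd5 and Psmd9, and Psmd10 was nearly level between naive and conventional iTreg cells. The direction of Psmd9 depended on the probe, since a second probe, detected on 3 arrays, gave a log2 difference of 0.56 between conventional iTreg and naive cells. Psmd10 had 3 probes, which gave differences of -0.04, -0.03 and -0.09.

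The chaperones of the core showed no common direction. Psmg3, which acts on the alpha ring as it forms, read 9.43 in naive CD4 cells, 9.70 in natural Treg, 10.32 in conventional iTreg and 10.39 in vitamin C iTreg, with both cultures above both ex vivo samples. Psmg1 and Psmg2 form a dimer that starts the alpha ring, and they differed from naive cells in conventional iTreg by 0.13 and -0.16. Psmg1 read 10.29 in naive CD4 cells, 10.14 in natural Treg, 10.42 in conventional iTreg and 10.33 in vitamin C iTreg, and Psmg2 read 11.06 in naive CD4 cells, 10.77 in natural Treg, 10.90 in conventional iTreg and 10.98 in vitamin C iTreg. Psmg3 thus exceeded 1.5-fold, while the values of its companions stayed within a range of under 1.5-fold.

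Activators other than the 19S cap also differed among themselves. Psme3, the nuclear activator PA28 gamma, read 10.70 in naive CD4 cells, 10.73 in natural Treg, 11.39 in conventional iTreg and 11.21 in vitamin C iTreg. Psme4, the nuclear activator PA200, read 12.34 in naive CD4 cells, 12.20 in natural Treg, 12.60 in conventional iTreg and 12.46 in vitamin C iTreg. By these probes both were higher in the cultures, Psme3 by 0.70 and Psme4 by 0.26 in conventional iTreg over naive cells. The direction of Psme4 depended on the probe, since a dimmer one detected on all arrays gave -0.21 in conventional iTreg and -0.28 in vitamin C iTreg. Psme1 and Psme2 form the interferon-inducible cytosolic activator PA28. Psme1 read 14.10 in naive CD4 cells, 14.28 in natural Treg, 14.04 in conventional iTreg and 14.13 in vitamin C iTreg, and Psme2 read 7.39 in naive CD4 cells, 7.72 in natural Treg, 7.56 in conventional iTreg and 7.37 in vitamin C iTreg. By these probes natural Treg had the highest value of each, and both differed by under 1.5-fold over the 4 arrays. A second Psme1 probe, detected on all arrays, was highest in vitamin C iTreg, at 13.68 against 13.65 in natural Treg.

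The remaining genes share a symbol with the proteasome and no place in it. Psmc3ip, which in meiosis helps recombinases pair homologous chromosomes, read 8.56 in naive CD4 cells, 8.33 in natural Treg, 9.76 in conventional iTreg and 10.16 in vitamin C iTreg. It was 2.3-fold higher in conventional iTreg and 3.03-fold higher in vitamin C iTreg than in naive cells, the largest differences among the 39 genes. Psme3ip1, named for binding Psme3, read 11.40 in naive CD4 cells, 11.38 in natural Treg, 11.48 in conventional iTreg and 11.26 in vitamin C iTreg. Without these genes, 1 of 37 remained at 2-fold against naive cells in either culture.

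Vitamin C iTreg were also compared with naive cells. There 34 of 39 genes lay above 0 (median 0.40), against 43.4% of 7945 genes above 0, 53.6% below and a median of -0.09. At least 1.5-fold higher were 12 of 39 (30.8%), against a background of 21.5%, and at least 2-fold higher were 2 of 39, against 13.8%. None was 1.5-fold lower, against 29% of all genes. With median scaling 4 of 39 reached 2-fold, but the background of 13.8% belongs to quantile normalization and none is given for median scaling. The same naive array served both comparisons, so they are not independent.

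Across the 4 arrays, both iTreg arrays lay above both ex vivo arrays in 26 of 39 genes (66.7%), against 35.1% of 8236 genes detected on at least 1 array and 37.2% of 3552 bright genes, whose log2 signal averaged at least 10. With median scaling it was 30 of 39, against 40.4%. By the brightest probe of each gene, both iTreg arrays lay below both ex vivo arrays in 0 of 39, against 42.6%. Dimmer probes of Psmg2 and Psmd6 did lie below. The Psmg2 probe read 10.52 in naive CD4 cells, 10.34 in natural Treg, 10.18 in conventional iTreg and 10.11 in vitamin C iTreg. The pattern of both iTreg arrays above both ex vivo arrays held in 7 of 7 beta ring genes, 8 of 10 non-ATPase genes, 3 of 5 alpha ring genes, 3 of 5 ATPases and 0 of 3 base chaperones. Cell cycle markers moved with the same division of the arrays. All 4 with a probe (Top2a, Cdk1, Birc5 and Pcna) were detected on both iTreg arrays and in natural Treg, and Cdk1 was not detected in naive cells. Their summed deposited intensity was 15777 and 19325 on the iTreg arrays against 1890 in natural Treg and 1064 in naive cells. In conventional iTreg over naive cells, Top2a differed by 4.57, Cdk1 by at least 4.71 and Birc5 by 4.94, but Pcna by only 0.20. Of the other marker lists, summed intensity in conventional iTreg, vitamin C iTreg, natural Treg and naive cells, in that order, was 10606, 5856, 4319 and 6067 for CD8 T and NK cell genes. The high sum in conventional iTreg followed Nkg7, which read 12.93 there and was not detected in naive cells. Cd8b1 and Klrd1 went the other way, at 10.34 and 8.68 in conventional iTreg against 11.97 and 10.88 in naive cells. Summed intensity was 61379, 67767, 84666 and 91568 for CD4 T cell genes, lower in both cultures than ex vivo. It was 5970, 7799, 3421 and 2713 for myeloid genes, 720, 767, 1646 and 869 for B cell genes and 211, 224, 431 and 667 for erythroid genes, of which Hba-a1 was detected ex vivo only and Alas2 on no array. All these sums are of deposited intensities without normalization and include undetected probes. No B cell or erythroid gene was detected on either iTreg array, so those sums are background there. The arrays also differed in scale, with median intensities of 143.6, 156.5, 134.7 and 132.3 in the same order. The part of any of these marker lists in the proteasome pattern was not tested, and culture, stimulation, cell cycle and array cannot be told apart in this design.

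Other large complexes gave the same pattern at similar rates, so it was not particular to the proteasome. Both iTreg arrays lay above both ex vivo arrays in 46 of 70 mitochondrial ribosome genes (65.7%), 49 of 81 oxidative phosphorylation genes (60.5%) and 5 of 8 genes of the CCT chaperonin (62.5%), but in 21 of 59 cytosolic ribosome genes (35.6%). The medians between conventional iTreg and naive cells were 0.17, 0.22, 0.20 and -0.0030 in the same order, beside 0.26 for the proteasome. In the comparison of the iTreg cultures these lists had medians of 0.0086, 0, 0.063 and -0.019, beside 0.12.

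**Figure D2:**
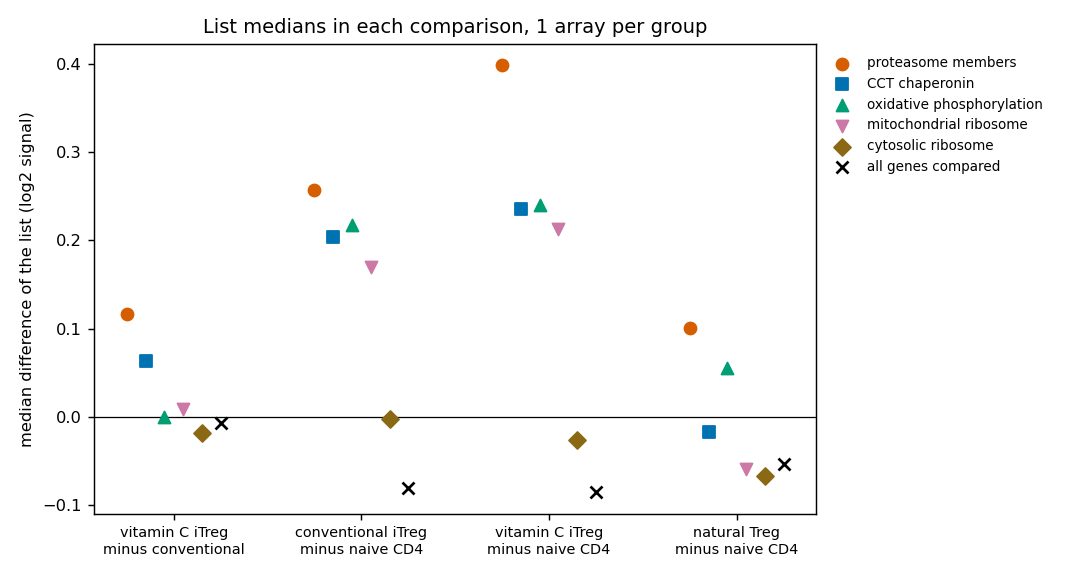
Median log2 difference of each gene list (vertical axis) in 4 comparisons of single arrays; circles are the proteasome genes, crosses all genes compared, and the other symbols 4 other complexes. The proteasome medians are 0.12, 0.26, 0.40 and 0.10 from left to right, and the medians of all genes lie between -0.09 and -0.01.

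Vitamin C iTreg were compared with conventional iTreg, 1 array each, so vitamin C cannot be told apart from differences between the cultures, sorts and arrays. Proteasome genes were slightly higher with vitamin C: 31 of 39 lay above 0, 7 below and Psmc2 at 0, with a median log2 difference of 0.12. Over all 7756 genes compared 48.4% lay above 0 and 51.1% below, and 45.8% of the bright genes lay above 0. No proteasome gene reached 1.5-fold in either direction, against backgrounds of 2.93% higher and 3.21% lower, nor 2-fold, against 0.941% higher and 0.812% lower. For a single gene, probes of the same gene disagreed by a median of 0.14 in this comparison over 1691 genes with several detected probes. With median scaling the median was 0.20, and the other settings tried gave 0.11 to 0.12.

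**Figure D3:**
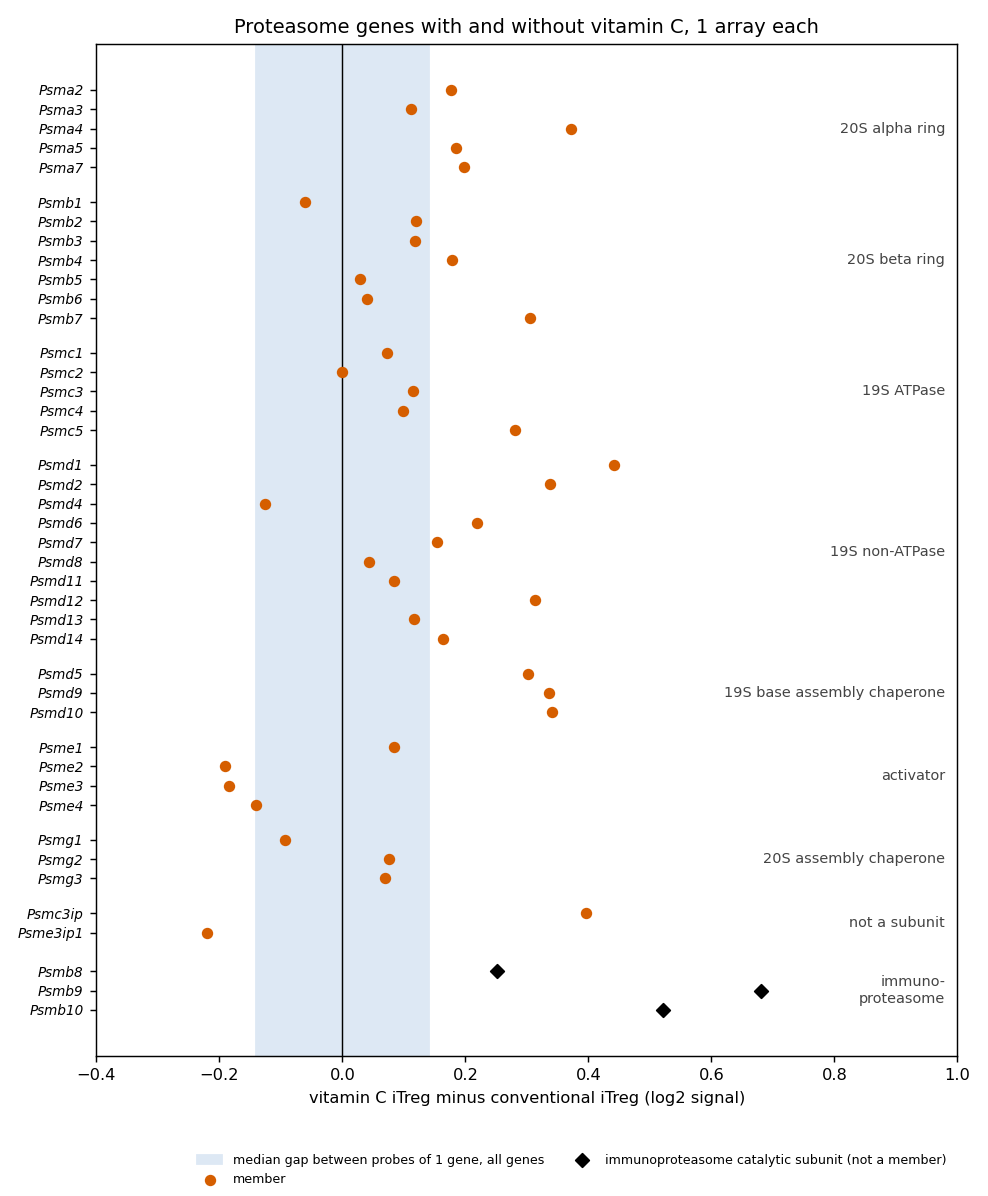
Log2 difference of vitamin C iTreg from conventional iTreg for each compared proteasome gene (circles) and for the 3 immunoproteasome catalytic subunits (diamonds), 1 array each; the shaded band is the median disagreement of 0.14 between probes of 1 gene. Circles lie to the right of 0 for 31 of 39 genes and reach 0.44 in Psmd1, while Psmb9 stands at 0.68.

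The largest values with vitamin C were 0.44 for the base scaffold Psmd1, 0.40 for Psmc3ip and 0.37 for the gate subunit Psma4. All 5 alpha ring genes lay above 0 (median 0.19), as did 6 of 7 beta ring genes, 9 of 10 non-ATPase genes and 3 of 3 base chaperones (median 0.34). The 3 probes of the chaperone Psmd10 gave 0.34, 0.36 and 0.40. Activators went the other way, with 1 of 4 above 0 and a median of -0.16: Psme2 differed by -0.19, Psme3 by -0.18 and Psme4 by -0.14. Among the catalytic subunits Psmb7 differed by 0.30, and Psmb5 and Psmb6 by 0.03 and 0.04. With median scaling the signs of Psmb1 and Psmd4, both slightly below 0, turned. Vitamin C iTreg were the highest of the 4 arrays in 26 of 39 genes (66.7%), against 23.4% of the 8236 genes, and in 32 with median scaling, against 28.8%. With quantile normalization the share was 62.5% of CCT chaperonin genes (5 of 8) and 41.4% of mitochondrial ribosome genes. It was 38.3% of oxidative phosphorylation genes and 22% of cytosolic ribosome genes.

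Natural Treg and naive cells, both taken directly from the animal, differed less. Of 39 genes, 27 lay above 0 and 12 below, with a median log2 difference of 0.10, against 41% of 7582 genes above 0, 56.4% below and a median of -0.05. None was at least 1.5-fold higher, against a background of 10.4%, or 2-fold higher, against 6.03%, and 3 were at least 1.5-fold lower, against 7.78%. The lower genes were Psmd9 (-0.65), Psmd5 (-0.62) and Psmd2 (-0.61), all dim. For Psmd9 the value rests on 1 of 2 probes, the other, not detected in naive cells, giving 0.03. Psmd8 had the largest positive difference in natural Treg, at 0.35, followed by the PA28 subunit Psme2 at 0.33. The proteasome median depended on scaling: with median scaling it was 0.016, while the median of all genes moved to -0.10. Under that scaling 24 of 39 genes lay above 0, against 36.4% of all genes. The signs that turned were those of Psma2, Psmb3, Psmc1, Psmd6 and Psme3.

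Conventional iTreg were higher than natural Treg in 32 of 39 genes, lower in 6 and equal in Psma2, with a median of 0.27, against 45.7% of 8031 genes above 0 and 53.2% below. At least 1.5-fold higher were 7 of 39 (17.9%), against a background of 19.4%, and Psmc3ip alone was at 2-fold (2.7-fold), against 11.1%. None was 1.5-fold lower, against 23.3%. Vitamin C iTreg were higher than natural Treg in 34 of 39 genes, with a median of 0.36, against 46.1% of 8034 genes above 0 and 52.8% below. There 12 of 39 (30.8%) were at least 1.5-fold higher, against 20.1%, and Psmc3ip alone was at 2-fold, against 11.7%. Again none was 1.5-fold lower, against 24.1%. Among subunits, Psmd12 (0.91), Psmb7 (0.84) and Psmd8 (0.82) differed most between vitamin C iTreg and natural Treg. With median scaling the median of all genes moved from -0.06 to 0.07 for conventional iTreg over natural Treg and from -0.06 to 0.08 for vitamin C iTreg, and the proteasome medians became 0.34 and 0.50.

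The core can exchange its constitutive catalytic subunits for inducible ones, Psmb9 in place of Psmb6, Psmb10 in place of Psmb7 and Psmb8 in place of Psmb5, which gives the immunoproteasome. Psmb9 read 13.63 in naive CD4 cells, 13.69 in natural Treg, 12.92 in conventional iTreg and 13.61 in vitamin C iTreg. Psmb10 read 13.11 in naive CD4 cells, 13.13 in natural Treg, 11.71 in conventional iTreg and 12.23 in vitamin C iTreg. Psmb8 read 10.46 in naive CD4 cells, 10.73 in natural Treg, 10.45 in conventional iTreg and 10.71 in vitamin C iTreg. Psmb9 and Psmb10 were lowest in conventional iTreg, where their constitutive counterparts were well above naive cells, and Psmb8 was as in naive cells.

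Between conventional iTreg and naive cells, the log2 difference of the constitutive subunit minus that of its inducible partner was 1.17 for Psmb6 and Psmb9, 2.03 for Psmb7 and Psmb10 and 0.78 for Psmb5 and Psmb8. At the first 2 sites the inducible partner fell short of naive cells by more than the constitutive subunit exceeded them. Across 8 other ways of processing the same contrasts ran from 1.15 to 1.18, from 1.99 to 2.04 and from 0.74 to 0.78. Several of these could not move them. Changes of the detection rule leave genes detected on every array as they were, and averaging probes leaves Psmb5, Psmb6, Psmb8 and Psmb9, with a single probe each. The deposited log2 values repeat the setting without background correction, so the ranges are narrow partly by construction. A second Psmb10 probe was lower in conventional iTreg than in naive cells by a log2 difference of -1.26, beside -1.40 for the first. With vitamin C the inducible partner was the more raised at each site, by 0.68 for Psmb9, 0.52 for Psmb10 and 0.25 for Psmb8, and the contrasts were -0.64, -0.22 and -0.22. In natural Treg against naive cells the contrasts were 0.07, 0.08 and -0.12. These contrasts compare changes of 2 probes and say nothing of how much of each subunit the cells held, and they were chosen after the values had been seen.

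**Figure D4:**
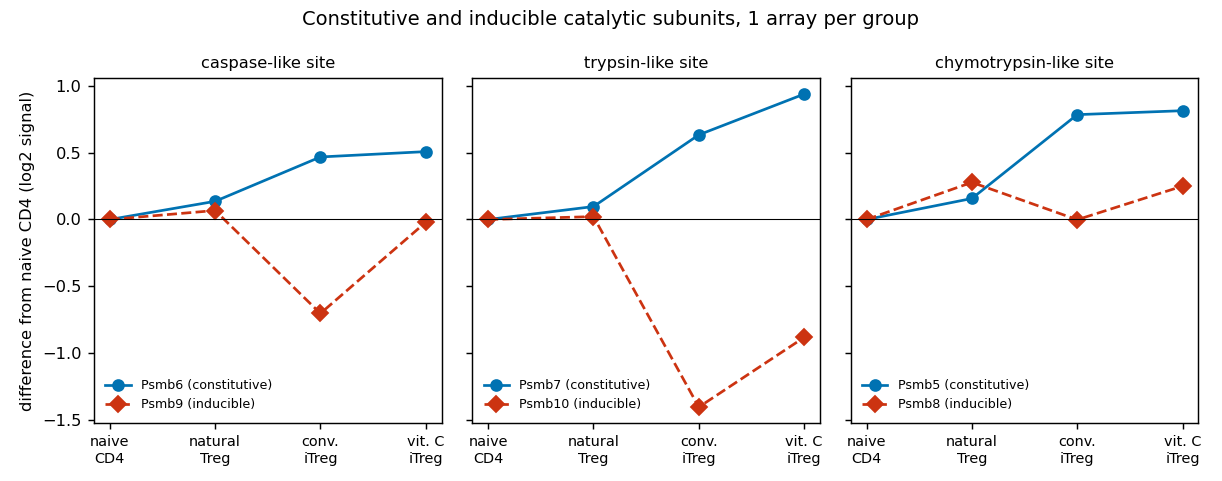
Log2 difference from the naive CD4 array (vertical axis) of each constitutive catalytic subunit (circles) and its inducible counterpart (diamonds) on the 4 arrays; 1 array per group, and lines join values of 1 gene without implying an order in time. In conventional iTreg the constitutive subunits stand at 0.47, 0.63 and 0.78, while Psmb9 stands at -0.70 and Psmb10 at -1.40.

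Genes that work beside the proteasome were also measured. Of 7 immunoproteasome and peptide loading genes, 1 lay above and 6 below 0 in conventional iTreg over naive cells (median -0.52), and 7 of 7 lay above 0 with vitamin C (median 0.52). Psmb8 stood nearly at 0 among them and turned above it with median scaling. The 1 above 0 was Pomp, the chaperone that completes both kinds of core, at 0.31. Tap1, a subunit of the transporter that carries peptides into the endoplasmic reticulum, differed by -0.62 in conventional iTreg over naive cells and by 0.69 with vitamin C. Of 8 compared deubiquitinases, receptors and shuttles, 6 lay above 0 in conventional iTreg over naive cells (median 0.43). Uchl5, a deubiquitinase of the cap, stood at 0.63 and, in vitamin C iTreg over natural Treg, at 1.19, and Rad23b, a shuttle for ubiquitinated proteins, at 0.66. Ube3c, a ubiquitin ligase that binds the proteasome, stood at -0.90.

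NRF1, encoded by Nfe2l1, is a transcription factor that raises proteasome genes when the proteasome is inhibited, and small Maf proteins such as Mafg are its partners on DNA. Of 9 compared genes of this route and of p97, 6 lay above 0 and 2 below in conventional iTreg over naive cells (median 0.42). Nfe2l1 read 11.28 in naive CD4 cells, 11.50 in natural Treg, 11.70 in conventional iTreg and 11.46 in vitamin C iTreg. Mafg read 7.96 in naive CD4 cells, 8.75 in natural Treg, 9.99 in conventional iTreg and 9.91 in vitamin C iTreg. Nfe2l2, which encodes the related factor NRF2, read 10.00 in naive CD4 cells, 8.36 in natural Treg, 8.47 in conventional iTreg and 8.42 in vitamin C iTreg. Nfe2l1 was lowest in naive cells and highest in conventional iTreg, with a difference of 0.42 between them. Mafg was also lowest in naive cells, and Nfe2l2 was highest in naive cells and similar on the other 3 arrays. Maf, a larger relative of Mafg, was not detected in naive cells and was higher by at least 1.02 on the log2 scale in conventional iTreg and by at least 1.58 in vitamin C iTreg. Vcp, the ATPase p97 that extracts proteins for the proteasome, differed from naive cells by 0.52 in conventional iTreg and 0.49 in natural Treg.

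Different probes of a gene gave the only internal check, since they share the RNA and the array. In 13 of the genes, 2 or more probes were detected on all 4 arrays. Between conventional iTreg and naive cells they disagreed by a median of 0.18, against 0.24 over 1691 genes, and had the same sign in 9 of 13, against 81.9%. With vitamin C they disagreed by a median of 0.09 and had the same sign in 11 of 13, against 65.1%. Psmb7, with 3 probes, gave 0.63, 0.74 and 0.76 between conventional iTreg and naive cells, and Psmd7 gave 0.74 and 0.93. Psmd11 gave 0.59 through its brightest probe and 0.01 through a dimmer one, and Psme4 gave 0.26 and -0.21.

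**Figure D5:**
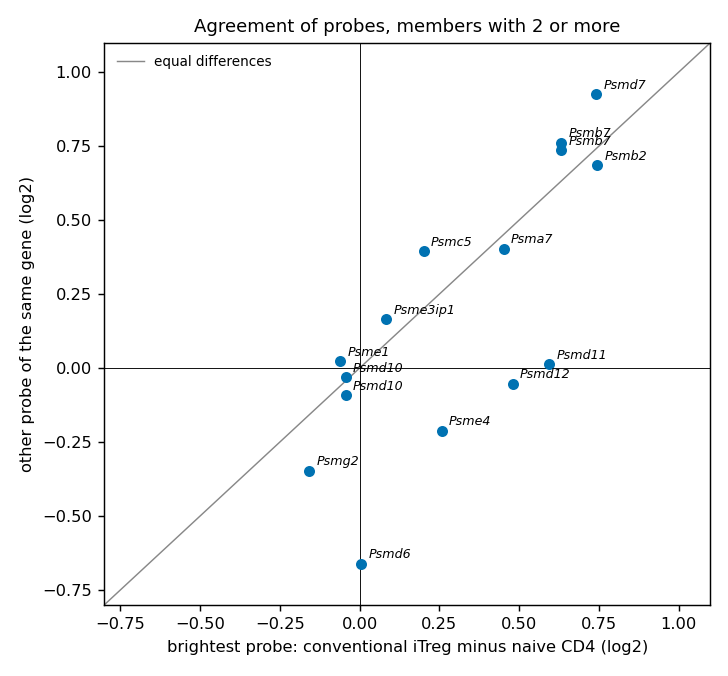
Log2 difference of conventional iTreg from naive CD4 cells by the brightest probe of a gene (horizontal axis) and by each further probe detected on all 4 arrays (vertical axis), for the 13 genes with 2 or more such probes; the diagonal marks equal differences. Psmb7, Psmb2, Psma7 and Psmd7 lie near the diagonal, and Psmd6, Psmd11, Psmd12 and Psme4 lie farther below it.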

How the data were processed

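RNA from 4 groups of mouse CD4 T cells, 550 ng per array, was amplified, labelled with biotin and hybridised to Illumina bead arrays, per the labels' protocols. The submitters' processing notes name GenomeStudio 2011.1. Per the file headers, the deposited table held, for each array, every probe's intensity on a linear scale and the p-value of its detection. Whether background had been subtracted is not stated in the labels. A second deposited table held log2 values, which equalled quantile-normalized log2 intensities within 5e-07.

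Intensities were background-corrected, quantile-normalized and log2-transformed by limma's neqc (limma 3.58.1, R 4.3.3, offset 16, negative controls inferred from detection p-values), and the steps were tested on simulated data. Quantile normalization hides a shift shared by most genes, and the offset shrinks the differences of dim genes. Later steps used Python 3.11.15, numpy 2.4.6, pandas 2.3.3 and matplotlib 3.10.9.

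Of 25697 probes, 23978 had 1 gene symbol in the array's gene table, and 1719 were unnamed. Of several probes, the one with the highest mean stood for the gene. For a gene detected on 1 of the 2 arrays only, the undetected value was set to at least that array's lowest detected signal, and the difference is a bound; this touched background genes and no proteasome gene. With 1 array per group no test was possible. All proteasome genes may be named, and 4 values were printed for those highest or lowest in their role. The genes and lists were chosen with earlier results of these data known. Chosen after the values were seen were the 1.5-fold count, the counts of patterns over 4 arrays, the mean log2 limit of 10, the catalytic contrasts, the promoters shown, the values of 4 genes printed outside the rule for names, the margin for calling a value the same and 4 of the alternatives. The planned likeness of patterns by Pearson's r over 4 arrays was not computed, since 4 arrays are too few.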

Additional observations from a re-analysis of the deposited data

How the results depend on the processing

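The median, the number above 0 and the numbers at 2-fold were recomputed in all 6 comparisons under 8 other processing choices and 2 more that were chosen after seeing the data. Of these values, 232 stayed within a factor of 1.5 and, for medians, within the median disagreement between probes of a gene, 8 moved and 0 reversed. That disagreement is wider than 2 of the 6 medians, those of vitamin C minus conventional iTreg and of natural Treg minus naive cells. The tally includes values that could hardly move. No proteasome gene was 2-fold lower in any comparison, and changes of the detection rule barely touch genes detected on all arrays. The deposited log2 values repeat the setting without background correction. Only medians, and not counts, could be called reversed. With median scaling in place of quantile normalization, the median of natural Treg minus naive cells was 0.016 and that of vitamin C minus conventional iTreg 0.20. The number at least 2-fold higher was then 4 for vitamin C iTreg over naive cells and 2 over natural Treg, with no share of all genes given for that scaling. Without Psmc3ip and Psme3ip1, that number was 1 for conventional iTreg over naive cells, 1 for vitamin C iTreg over naive cells, 0 for conventional iTreg over natural Treg and 0 for vitamin C iTreg over natural Treg. The causes were not tested, beyond the removal of Psmc3ip itself. Averaging all probes turned Psmd6 to -0.33 and Psmd9 to 0.10 in conventional iTreg over naive cells. No paired analysis was possible because each group had 1 array. The single array of each group limits every value here, and signal over background limits dim genes such as Psmd2, Psmd5, Psmd6 and Psmd9.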
